A study of Mus musculus with 4 samples.

Results

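A set of 36 genes of the cell division machinery was followed in newborn mouse brain with and without CIC, a transcriptional repressor whose action is relieved by Ras-ERK signalling. The genes were taken by name from the deposited expression table, as 15 genes of DNA replication and 21 genes of mitosis. All 36 were present, each on 1 row, among 20793 gene rows. Brains were collected at postnatal day 1 and sequenced as 2 libraries labelled wild type (WT) and 2 labelled CIC knockout (KO), with the letters A and B in each group. The knockout samples are labelled Nes-Cre;CIClox/lox, so that Cre under Nestin control, a promoter of neural progenitors, deletes the floxed gene in neural cells, while blood, vessel, meningeal and microglial cells of the brain arise outside that lineage. The WT labels disagree with each other: the genotype field reads Nes-Cre;CIC+/+, whereas the title gives Cre minus with the letters L_L that the knockout titles carry too. The sources used here do not say whether a library is 1 animal, what strain or sex the animals had, or which exons were deleted, and p-values here therefore reflect the spread of these 4 libraries alone.

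A dividing cell first licenses its replication origins by loading the ring of Mcm2 to Mcm7, then copies its DNA in S phase, and then builds a spindle and separates its chromosomes in mitosis. Replication genes are switched on by E2F factors from late G1 onward, and mitotic genes later, in G2, by the B-Myb-MuvB and FoxM1 complexes acting at CHR elements, which often stand near CCAAT boxes bound by NF-Y. In the newborn mouse brain the dividing cells include progenitors of the ventricular zones, glial precursors and the granule cell precursors of the cerebellum.

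E2F sites were more frequent among the replication promoters and CHR elements among the mitotic promoters. Of the 36 genes, 29 had an entry in the RefSeq promoter table (build GRCm38.p6), each window running from 250 bases before the transcription start to 50 bases after it. The genes without an entry were Mcm4, Gins2, Ccne2, Ccna2, Aurkb, Tpx2 and Kif20a. An E2F site (TTTCCCGC, TTTGGCGC or TTTCGCGC, on either strand) was found for 6 of 12 replication genes (50%) and 1 of 17 mitotic genes (5.88%), against 4.0% of the 9516 tested genes with a promoter and 1.84% of all 32851 promoter windows. The CHR element (TTTGAA, either strand) had the opposite distribution, with 12 of 17 mitotic genes (70.6%) and 1 of 12 replication genes (8.33%), the latter being Mcm2, against 13.5% of tested genes and 17.9% of all windows. The CCAAT box (CCAAT, either strand) stood in 15 mitotic (88.2%) and 8 replication promoters (66.7%), against 43.2% of tested genes and 37.4% of all windows. The CIC sites searched (TGAATGAA and TGAATGGA, either strand) were in 0 of the 29 promoters, against 1.88% of tested genes and 2.47% of all windows. These are matches of letters, not measured binding. Overlaps among them were 4 bases between E2F sites of opposite strands in Mcm5 and in Mcm6, 1 base between an E2F site and a CCAAT box in Mcm7, and 2 bases between CCAAT boxes in Ube2c.

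Upstream stretches of 200 bases, ending just before the start, are shown for 6 genes in the direction of the gene, with E2F sites and CHR elements in capitals. Rrm2 (chr12:24708054-24708253, plus strand), Mcm7 (chr5:138171884-138172083, minus strand) and Ube2c (chr2:164769729-164769928, plus strand) are among the 4 genes of their class with the largest difference between the groups. Mcm6 (chr1:128359706-128359905), Cdc20 (chr4:118437344-118437543) and Cdk1 (chr10:69352913-69353112), all on the minus strand, were picked after the motifs were seen, to show how the sites are arranged.
Rrm2: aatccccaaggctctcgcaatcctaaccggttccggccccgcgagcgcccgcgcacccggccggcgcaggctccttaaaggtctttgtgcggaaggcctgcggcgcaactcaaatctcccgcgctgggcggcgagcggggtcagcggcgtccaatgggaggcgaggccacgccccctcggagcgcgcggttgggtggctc
Mcm7: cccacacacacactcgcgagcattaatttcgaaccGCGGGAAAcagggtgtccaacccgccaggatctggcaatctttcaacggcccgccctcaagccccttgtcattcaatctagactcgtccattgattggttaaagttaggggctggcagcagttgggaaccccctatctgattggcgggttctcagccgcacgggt
Mcm6: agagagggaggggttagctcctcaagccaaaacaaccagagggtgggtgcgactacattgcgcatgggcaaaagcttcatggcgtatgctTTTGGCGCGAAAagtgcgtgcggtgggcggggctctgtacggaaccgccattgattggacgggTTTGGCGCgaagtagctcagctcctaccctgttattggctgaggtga
Ube2c: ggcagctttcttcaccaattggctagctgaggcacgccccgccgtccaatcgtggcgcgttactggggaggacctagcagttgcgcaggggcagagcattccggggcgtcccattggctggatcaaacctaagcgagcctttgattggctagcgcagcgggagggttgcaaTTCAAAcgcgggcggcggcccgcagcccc
Cdc20: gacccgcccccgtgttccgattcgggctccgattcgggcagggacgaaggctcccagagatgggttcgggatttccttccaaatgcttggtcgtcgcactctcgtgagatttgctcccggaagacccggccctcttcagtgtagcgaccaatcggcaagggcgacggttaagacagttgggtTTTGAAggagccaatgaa
Cdk1: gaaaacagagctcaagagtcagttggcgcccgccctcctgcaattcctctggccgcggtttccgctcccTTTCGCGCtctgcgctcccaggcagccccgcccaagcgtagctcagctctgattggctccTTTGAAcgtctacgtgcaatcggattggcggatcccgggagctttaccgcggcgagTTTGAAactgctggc

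Mcm6 carries a pair of overlapping E2F sites on opposite strands and a further site nearer the start, whereas Cdc20 and Ube2c carry a single CHR close to the start. Cdk1 has an E2F site upstream of a pair of CHR elements and was the only mitotic promoter with a match to both motifs. Rrm2, the replication gene with the largest difference, had neither motif in its window.

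**Figure D1:**
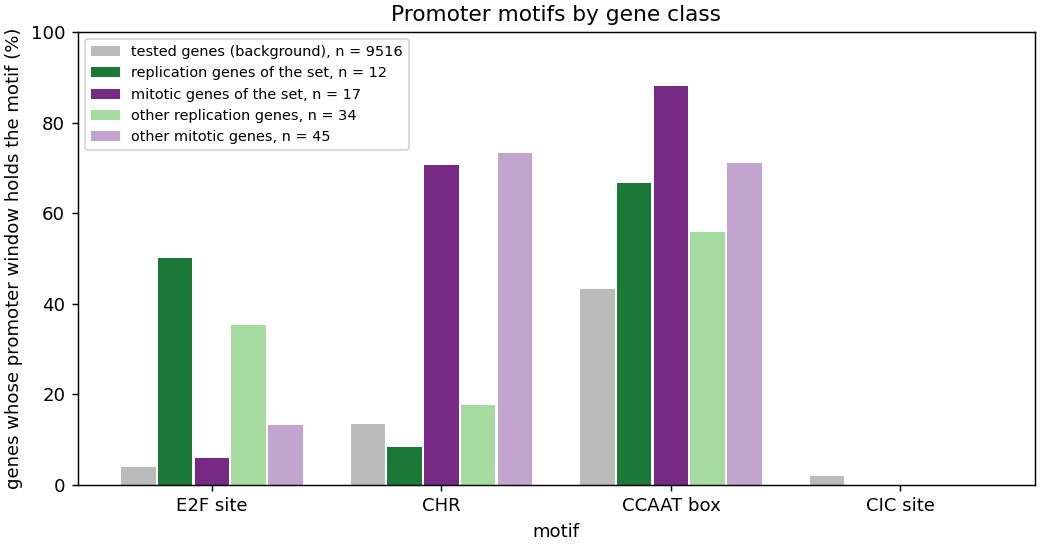
Percent of genes (y axis) whose promoter window of 300 bases holds each motif (x axis), for the 9516 tested genes, the 12 replication and 17 mitotic genes of the set, and 34 other replication and 45 other mitotic genes. E2F sites are frequent in both replication groups and CHR elements in both mitotic groups.

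The targeted gene had less RNA in the knockout. Cic was at 51.3 and 56.4 FPKM (fragments normalised to transcript length and to the number of mapped fragments) in WT A and B, and at 19.1 and 22.2 FPKM in KO A and B. On the log2 scale this was -1.34 ± 0.12 (SE), and the adjusted p over all genes in limma was 0.213. Column sums lay between 440005 and 449559 FPKM. Total depth is unknown, and ratios of low values put the libraries within 1.21 times of each other. KO B stood apart in its tissue markers. The RNA is from whole tissue, so fewer dividing cells and less of these RNAs per dividing cell cannot be told apart.

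Replication genes were lower in KO A than in either WT library almost throughout. In KO B 5 of the 13 tested were lower than both, near the share of all rows (41.3%). Differences below are on the log2(FPKM + 1) scale, knockout minus WT, over rows with a mean of at least 1 FPKM. Of the 15 genes 13 passed that filter, and Cdc6 and Ccne2 did not. KO A lay below both WT libraries for 12 of the 13, against 37.0% of all 12703 rows tested, and above both for 0 (42.0% of all rows). KO B lay above both for 7 (48.0% of all rows) and below both for 5 (41.3% of all rows). Both knockout libraries lay below both WT libraries for 5 of the 13 (Mcm3, Mcm7, Pcna, Rrm2 and Tyms), against 21.7% of all rows, and above both for 0.

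The MCM helicase genes, whose 6 products form the ring that unwinds DNA at the fork, were unequal in level and in pattern. Mean WT levels ran from 5.48 FPKM for Mcm3 to 34.8 FPKM for Mcm7. Mcm2 had 7.11 and 6.10 FPKM in WT A and B, 4.65 in KO A and 7.31 in KO B. KO A was the lowest library and KO B the highest, and the same held for Mcm4 and Mcm5. The log2 difference of Mcm2 was -0.15 ± 0.21 (SE; adjusted p of 0.78, limma). Mcm3 had 5.58 and 5.38 FPKM in WT, 4.04 in KO A and 5.36 in KO B, so that the groups were separated only by a narrow margin in KO B. Its log2 difference was -0.19 ± 0.14 (adjusted p of 0.593, limma).

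Mcm7 (mm9, chromosome 5, 138605817 to 138613090) was the exception among the helicase genes. It had 35.1 and 34.5 FPKM in WT and 29.9 and 30.0 FPKM in knockout, so that the replicates of each group lay close together and both knockout libraries were lower. The means were 34.8 ± 0.391 and 29.9 ± 0.0893 FPKM (SD, n = 2 each), and the log2 difference was -0.21 ± 0.09 (SE; limma's adjusted p of 0.509). KO B was 1.00 times KO A for Mcm7, against 1.21 to 1.57 times for the other 5 subunits.

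The loading factors behaved less evenly. Cdc6, the ATPase that loads the helicase at origins, had the lowest level of the 36 genes. It stood at 0.771 and 0.602 FPKM in WT and at 0.394 and 0.491 FPKM in knockout, below WT in both libraries, but under the filter and therefore untested. Its partner Cdt1 had 4.397 and 3.415 FPKM in WT, 2.86 in KO A and 4.95 in KO B, with group means of 3.91 ± 0.694 and 3.90 ± 1.47 FPKM (SD, n = 2 each). Gins2, a subunit of the GINS complex that completes the active helicase, was the replication gene that KO A left within the WT range, with 4.69 and 4.37 FPKM in WT, 4.45 in KO A and 5.604 in KO B.

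Genes that supply the fork and its nucleotides included 3 of the 5 tested replication genes with both KO libraries below both WT libraries. Rrm2 (chromosome 12, 25393119 to 25399011), the small and cell cycle-regulated subunit of ribonucleotide reductase, had 23.1 and 18.2 FPKM in WT and 14.0 and 13.5 FPKM in knockout. Both knockout libraries were lower than both WT libraries and lay closer together than the WT pair. The means were 20.6 ± 3.49 and 13.8 ± 0.341 FPKM (SD, n = 2 each), so that the knockout mean was 66.8% of WT. In limma the log2 difference was -0.54 ± 0.14 (SE), at an unadjusted p of 0.0141 and an adjusted p of 0.442. The large subunit gene Rrm1 differed from it, with 17.8 and 17.6 FPKM in WT, 16.9 in KO A and 21.01 in KO B.

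Tyms (chromosome 5, 30384740 to 30400165), which encodes thymidylate synthase, had 1.89 and 1.98 FPKM in WT and 1.55 and 1.43 FPKM in knockout. The groups did not overlap, and the log2 difference was -0.24 ± 0.09 (adjusted p of 0.498, limma). Pcna (chromosome 2, 132075022 to 132078916), the sliding clamp of the DNA polymerases and the most abundant of the 36 RNAs per length, had 74.6 and 70.9 FPKM in WT and 63.5 and 66.4 FPKM in knockout. Its groups did not overlap either, with a log2 difference of -0.16 ± 0.09 (adjusted p of 0.561, limma). Of the cyclin E genes, whose products activate Cdk2 at S phase entry, Ccne2 had 1.19 and 0.911 FPKM in WT and 0.873 and 0.865 in knockout, under the filter. Ccne1 had 3.16 and 2.68 FPKM in WT, 2.56 in KO A and 3.79 in KO B, so its groups overlapped.

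**Figure D2:**
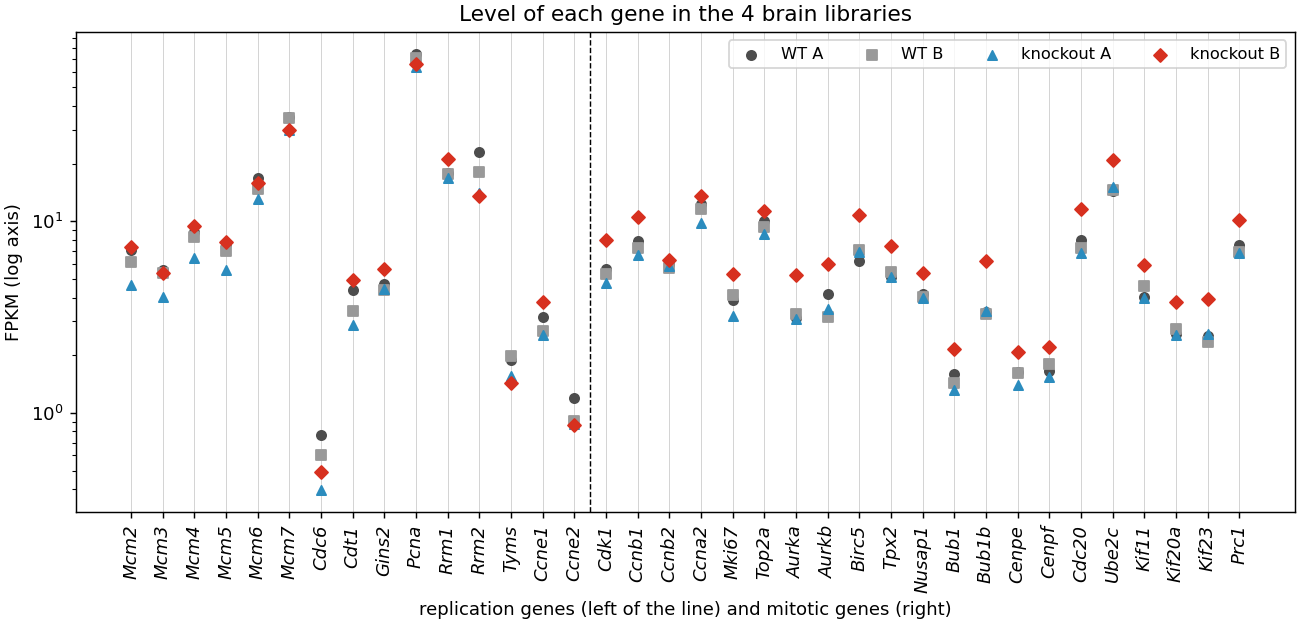
FPKM on a log axis (y) for each of the 36 genes (x) in WT A, WT B, KO A and KO B, 1 point per library. For every mitotic gene KO B is the highest point, while Rrm2, Tyms and Mcm7 have both knockout points below both WT points.

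Mitotic genes split the knockout libraries: all 21 were highest in KO B, and 15 were lowest in KO A. KO B was also the library with the highest sum of cerebellar and hindbrain markers (139 FPKM, against 23.8 and 28.9 in WT and 58.8 in KO A). Its sum of red blood cell markers was the highest too (1198 FPKM, against 288 and 188 in WT). The sum was 99.98 FPKM in KO A, where 4 rows of that list were listed at 0. KO B had the lowest sum of forebrain markers (289 FPKM, against 495 and 514 in WT and 411 in KO A). The part of these markers in the mitotic result was not tested. All 21 passed the filter, with mean WT levels from 1.51 FPKM (Bub1) to 14.4 FPKM (Ube2c). KO B lay above both WT libraries for 21 of 21, against 48.0% of all rows tested. KO A lay below both WT libraries for 15, against 37.0% of all rows, and above both for 3, against 42.0%. Bub1b, Kif23 and Ube2c were therefore the only mitotic genes with both knockout libraries above both WT libraries, 3 of 21 against 27.1% of all rows. KO B exceeded KO A for all 21 mitotic genes and for 11 of the 13 tested replication genes, against 51.7% of all rows. WT B was below WT A for 13 of 21 mitotic and 12 of 13 replication genes, against 52.6% of all rows.

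Among the cyclins and their kinase, Cdk1, the kinase that drives entry into mitosis, had 5.64 and 5.33 FPKM in WT, 4.75 in KO A and 7.95 in KO B. The B-type cyclin gene Ccnb1 followed it, with 7.88 and 7.27 FPKM in WT, 6.70 in KO A and 10.6 in KO B. Its relative Ccnb2 had the smallest ratio of KO B to KO A in the class, with 5.99 and 5.73 FPKM in WT, 5.84 in KO A and 6.25 in KO B. Ccna2, the cyclin of S phase and G2, had 12.3 and 11.5 FPKM in WT, 9.85 in KO A and 13.5 in KO B. It was the only mitotic gene whose mean difference was negative.

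The common proliferation markers showed the same ordering. Mki67, which encodes the Ki-67 protein that coats mitotic chromosomes, had 3.90 and 4.10 FPKM in WT, 3.21 in KO A and 5.31 in KO B. Top2a, the topoisomerase that untangles sister chromatids, had 10.1 and 9.34 FPKM in WT, 8.61 in KO A and 11.3 in KO B. For both genes the knockout libraries lay on opposite sides of the WT pair. The log2 differences were 0.04 ± 0.21 for Mki67 and 0.02 ± 0.15 for Top2a (SE; limma's adjusted p of 0.937 and 0.953).

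The 5 genes of the Aurora kinases and of spindle assembly lay 0.32 to 0.62 above the WT mean in KO B on the log2 scale. Birc5 (chromosome 11, 117710551 to 117717057), which encodes survivin, the targeting subunit of the Aurora B complex, had 6.198 and 7.084 FPKM in WT, 6.91 in KO A and 10.8 in KO B. KO A was within the WT range and KO B above it, for a log2 difference of 0.34 ± 0.21 (adjusted p of 0.573, limma). Aurkb had 4.15 and 3.17 FPKM in WT, 3.48 in KO A and 5.96 in KO B, with a log2 difference of 0.27 ± 0.25 (adjusted p of 0.659, limma). Aurka, Tpx2, its activator on the spindle, and Nusap1, which bundles spindle microtubules, were likewise highest in KO B, at 5.22, 7.41 and 5.36 FPKM against WT means of 3.19, 5.29 and 4.09 FPKM.

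Checkpoint and kinetochore genes included the largest mitotic difference. Bub1b (chromosome 2, 118423947 to 118467328), the BubR1 kinase-like subunit of the spindle checkpoint, had 3.37 and 3.28 FPKM in WT, 3.40 in KO A and 6.22 in KO B. Both knockout values were above WT, KO A by less than the spread of the WT pair. The log2 difference was 0.38 ± 0.25 (adjusted p of 0.576, limma). Bub1, its paralogue, and the kinetochore genes Cenpe and Cenpf stayed low in all libraries, between 1.32 and 2.21 FPKM.

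Ube2c (chromosome 2, 164595429 to 164598402), the ubiquitin-conjugating enzyme that works with the anaphase promoting complex, had 14.39 and 14.49 FPKM in WT, 15.1 in KO A and 20.9 in KO B. Its groups did not overlap, and its log2 difference was 0.28 ± 0.17 (adjusted p of 0.566, limma). Cdc20, the activator of that complex, had 7.98 and 7.22 FPKM in WT, 6.80 in KO A and 11.5 in KO B. Kif23 (chromosome 9, 61765085 to 61794606), the kinesin of the central spindle, had 2.53 and 2.35 FPKM in WT, 2.58 in KO A and 3.94 in KO B. Its log2 difference was 0.29 ± 0.18 (adjusted p of 0.567, limma). Kif11, Kif20a and Prc1, which separate the spindle poles or organise the midzone, had 5.90, 3.78 and 10.2 FPKM in KO B against WT means of 4.32, 2.66 and 7.20 FPKM.

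Within the set, mitotic genes stood higher than replication genes, each relative to WT, in both knockout libraries by their medians. Among genes outside the set this was clear in KO B only. In KO A the median deviation from the WT mean was -0.24 for the 13 tested replication genes and -0.06 for the 21 mitotic genes, a gap of 0.18. In KO B the medians were 0.08 and 0.42, a gap of 0.33. In WT A and WT B the gap was -0.02 and 0.02, and over all rows tested the median was 0.01 in KO A and 0.03 in KO B. Over both knockout libraries the median log2 difference was -0.12 for replication genes (10 of 13 negative) and 0.15 for mitotic genes (20 of 21 positive). Over all 12703 rows the median was 0.02, with 5889 negative and 6814 positive. Outside the set, the median deviation in KO A was -0.11 for 41 other replication genes and -0.08 for 51 other mitotic genes. In KO B it was 0.02 and 0.32 for the same lists. These medians are descriptions, since genes measured in the same libraries are not replicates.

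**Figure D3:**
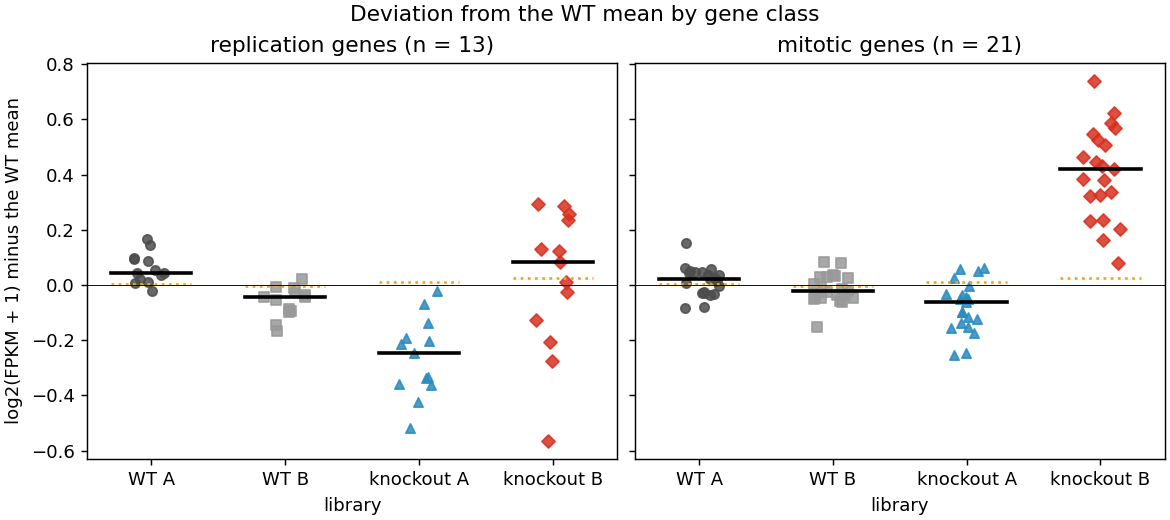
Deviation of log2(FPKM + 1) from the WT mean (y axis) by library (x axis) for the 13 tested replication genes and the 21 mitotic genes, 1 point per gene. Black bars are class medians and dotted bars the median of all 12703 rows tested. The replication median is -0.24 in KO A and 0.08 in KO B, and the mitotic median -0.06 and 0.42.

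The knockout libraries lay farther apart than the WT libraries for all 21 mitotic genes, against 76.1% of all rows tested. For the tested replication genes this held for 10 of 13 (76.9%), about the share of all rows. For Mcm7, Pcna and Rrm2 the WT pair was the wider one. KO B over KO A had a median fold of 1.49 for mitotic genes, from 1.07 for Ccnb2 to 1.83 for Bub1b, whereas WT B over WT A had a median of 0.961 with a range of 0.764 to 1.145. For replication genes the median fold of KO B over KO A was 1.26, from 0.919 for Tyms to 1.73 for Cdt1, and that of WT B over WT A was 0.93 with a range of 0.777 to 1.044.

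**Figure D4:**
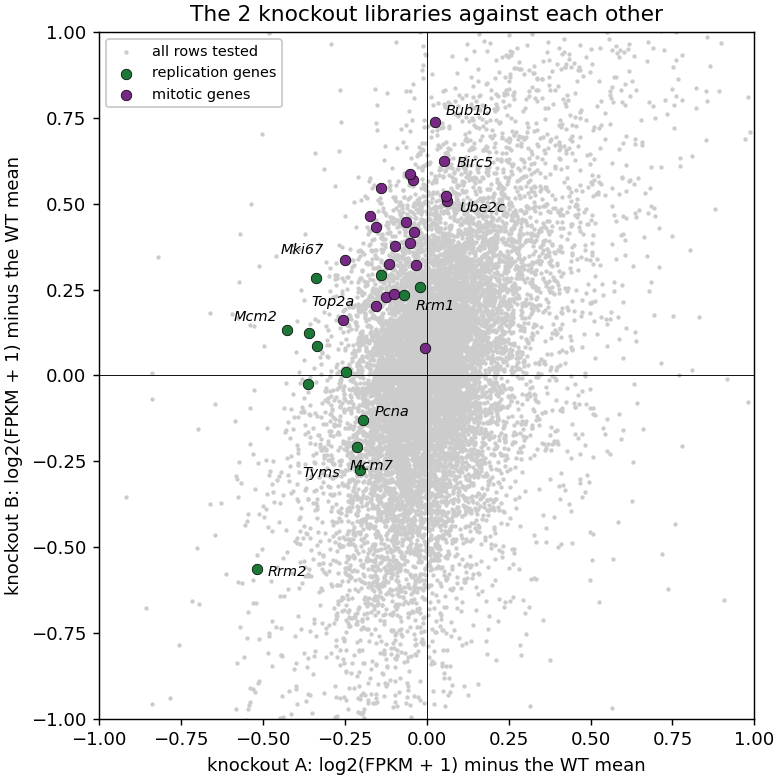
Deviation from the WT mean in KO A (x axis) against KO B (y axis), both in log2(FPKM + 1), for the tested replication and mitotic genes and all other rows tested (grey; rows beyond 1 on either axis are not drawn). Mitotic genes all lie above 0 on the y axis, and Rrm2 lies farthest down and to the left among the set.

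None of the 34 tested genes passed the test. By limma 0 were called higher and 0 lower at an adjusted p under 0.05, against 3 rows higher (0.0236%) and 3 rows lower (0.0236%) of all 12703. Without adjustment, 0 of them were higher at a p under 0.05 (6.61% of all rows) and 1 was lower, Rrm2 (3.54% of all rows). An exact permutation test of 2 libraries against 2 could not give a two-sided p below 0.333 for a single gene. Without KO A, 16 mitotic genes were called higher and 2 replication genes (Rrm2 and Tyms) lower, in a fit that called 17.9% of all rows higher and 16.0% lower and in which the lone KO library is assumed to vary like the WT libraries. Without KO B, 0 of the genes were called, against 0.126% of all rows higher and 0.0866% lower. In that fit 13 of 13 replication and 17 of 21 mitotic genes had a negative difference, against 47.4% of all rows.

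The marker lists behind the sums given with the mitotic genes were uneven. All 8 markers of cerebellar granule precursors and hindbrain were above both WT libraries in KO B (48.0% of all rows). The hindbrain and granule precursor genes Atoh1, Barhl1, En1, En2 and Pax2 were near 0 in WT too, between 0 (Atoh1 and En1 in WT A) and 0.524 FPKM (Barhl1 in WT B). They were between 0 and 0.0835 FPKM in KO A, with Atoh1 and En2 listed at 0 there, while Barhl1 reached 11.4 and En2 5.27 FPKM in KO B. The higher sum in KO A came from Zic1, Zic2 and Zic4. Of the forebrain markers, 8 of 8 were below both WT libraries in KO B (41.3% of all rows).

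Markers of neural progenitors went both ways in KO B, and their part in the mitotic result was not tested. Of the 9 markers, 4 were above both WT libraries there (Vim, Pax6, Sox2 and Prom1; 48.0% of all rows) and 4 below both (41.3% of all rows). In KO A 0 were above both (42.0% of all rows) and 5 below both (37.0% of all rows). Vim had 120 and 126 FPKM in WT, 121 in KO A and 193 in KO B, and Pax6 had 7.57, 7.73, 6.79 and 13.9 FPKM in the same order. All 9 summed to 785 and 776 FPKM in WT, 745 in KO A and 721 in KO B, but Fabp7 made up 64.2% of the WT sum, and without it the sums were 277, 282, 273 and 337 FPKM. The direction of the sum in KO B thus depended on single abundant markers. Without Fabp7 the largest term was Vim, which was higher in KO B, whereas Nes, Hes1 and Slc1a3 were below both WT libraries there. The 6 intermediate progenitor markers summed to 83.9, 85.4, 72.2 and 71.9 FPKM, and without Elavl4, 48.7% of their WT sum, to 42.5, 44.3, 28.6 and 36.5 FPKM. Oligodendrocyte precursor markers (5 genes) summed to 78.3, 79.0, 80.0 and 68.8 FPKM, and neuronal markers (7 genes) to 3089, 3048, 3011 and 2570 FPKM. Among the red blood cell markers (8 genes on 10 rows), the 4 Hba-a1 and Hba-a2 rows were listed at 0 in KO A. Microglial markers (8 genes) summed to 63.3, 73.4, 84.8 and 124 FPKM, endothelial and meningeal markers (9 genes) to 126, 164, 176 and 188 FPKM, and choroid plexus markers (7 genes) to 152, 493, 979 and 1050 FPKM.

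**Figure D5:**
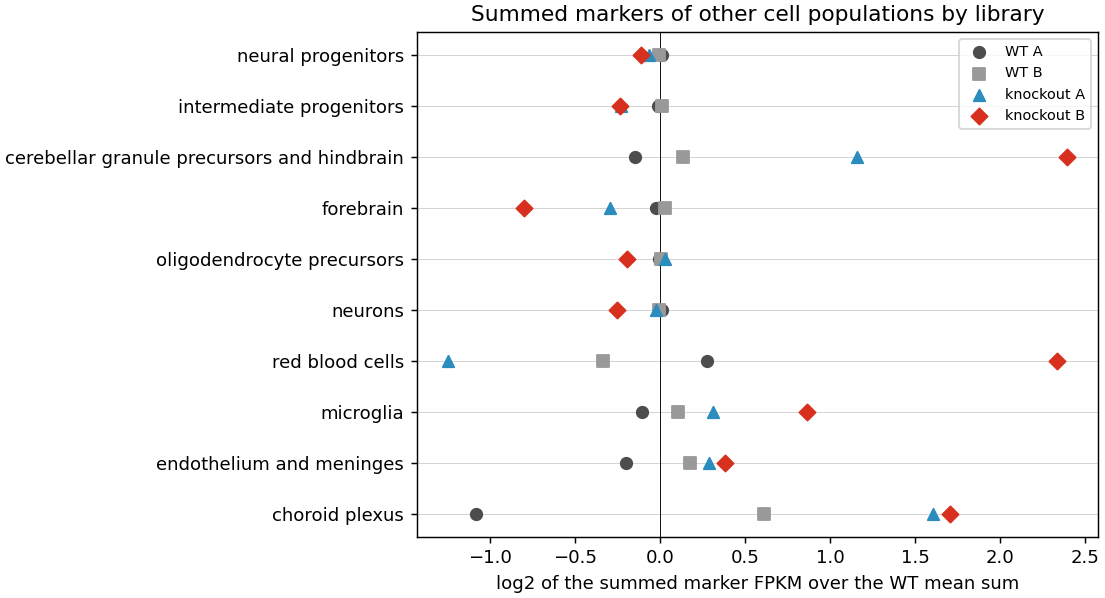
Log2 of the summed FPKM of each marker list over the mean WT sum (x axis) by list (y axis), 1 point per library. KO B has the highest cerebellar and hindbrain sum (139 FPKM) and the lowest forebrain sum (289 FPKM). The neural progenitor sum in KO B (721 FPKM) lies below WT with Fabp7 and above WT without it (337 FPKM, of which Vim is 193). Of its 9 markers, 4 are above both WT libraries there and 4 below both.

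Other genes of both pathways were counted from lists that hold none of the 36. Of 41 tested replication genes outside the set, 0 passed by limma, 23 had a negative and 18 a positive difference, and the median was -0.05. Of all 12703 rows, 5889 were negative and 6814 positive. KO A lay below both WT libraries for 24 of them (37.0% of all rows) and KO B above both for 17 (48.0% of all rows), so that the share for KO B was below that of all rows. Both knockout libraries lay below both WT libraries for 6 of the 41, against 21.7% of all rows, and above both for 3, against 27.1%. The first share was thus below that of all rows, unlike in the set. Pola1, the catalytic subunit of primase-polymerase alpha, had 2.71 and 2.59 FPKM in WT, 2.1 in KO A and 1.23 in KO B. Gins1, of the same complex as Gins2, had 7.80 and 7.21 FPKM in WT and 5.48 and 6.33 in knockout, whereas the ligase gene Lig1 had 10.02 and 10.16 FPKM in WT and 10.65 and 14.96 in knockout. Their log2 differences were -0.47 ± 0.18, -0.30 ± 0.11 and 0.30 ± 0.17 (SE; limma's adjusted p of 0.492, 0.488 and 0.56).

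Of 51 tested mitotic genes outside the set, 0 passed by limma, 44 had a positive and 7 a negative difference, and the median was 0.11. Of all 12703 rows, 6814 were positive and 5889 negative. KO B lay above both WT libraries for 47 of them (48.0% of all rows) and KO A below both for 35 (37.0% of all rows). Anln, the anillin of the cleavage furrow, had 1.46 and 2.08 FPKM in WT, 1.75 in KO A and 4.26 in KO B. Cenpa, the centromeric histone, had 8.37 and 7.05 FPKM in WT, 8.26 in KO A and 12.2 in KO B. Their log2 differences were 0.47 ± 0.34 and 0.35 ± 0.20 (SE; limma's adjusted p of 0.591 and 0.56). Racgap1, the partner of Kif23 in the central spindle, was listed at 0 in KO A and at 16.8, 17.0 and 20.6 FPKM in WT A, WT B and KO B. Such a 0 may mean that the estimate failed there, so its fold change is left out, although it is 1 of the 7 counted as negative.

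Among 18 tested transcription factors of the cell cycle 0 passed by limma and the median log2 difference was 0.05. Foxm1, an activator of mitotic genes, had 4.41 and 4.36 FPKM in WT, 4.35 in KO A and 6.34 in KO B. The repressive family member E2f6 had 9.08 and 7.94 FPKM in WT and 9.14 and 11.4 in knockout, and the E2F partner Tfdp2 had 5.51 and 6.50 in WT and 6.62 and 7.81 in knockout. E2f6 and Tfdp2 were the only ones with both knockout libraries above both WT libraries, 2 of 18 against 27.1% of all rows. Both were below both WT libraries for 1 of 18, Rb1, against 21.7% of all rows. The log2 differences of Foxm1, E2f6 and Tfdp2 were 0.22 ± 0.17, 0.24 ± 0.14 and 0.23 ± 0.13 (SE; limma's adjusted p of 0.618, 0.562 and 0.557).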

How the data were processed

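The authors deposited 1 value for each gene and library, taken here to be FPKM from its range and from Cufflinks 2.1.1, which the submitters' processing notes name with bcl2fastq 2.17, cutadapt, TopHat2 2.0.11 and mm9, without order or settings. The sources used here do not give RNA selection, strandedness or counting rules. Coordinates of genes are mm9 with the start raised by 1, and those of promoters are GRCm38.p6. Without strand, reads of Ccna2, Ccne2, Cdc20, Gins2, Kif20a and Nusap1 cannot be told apart from those of table rows that overlap them.

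Values were analysed as log2(FPKM + 1) for 12703 rows with a mean of 1 FPKM or more, which understates changes of low genes. The groups were tested with limma 3.58.1 (R 4.3.3; lmFit and eBayes, no covariate, two-sided, Benjamini-Hochberg over all rows, 0.05), with 2 residual and 2.63 prior degrees of freedom. The calculation was run on simulated data with the same noise for all genes and libraries and with changes larger than those of the set. That run checks the code and cannot show how the test performs on these libraries. Depth is unknown, so no counting error is given; relative depth is the most common ratio of values under 0.15 FPKM to WT A. Per-library values are given for genes whose groups do not overlap, the 5 of each class with the largest difference, Mki67, Top2a, Pcna and Mcm2; the 3 with the largest difference are named in each list outside the set. Per-library values of other members were added after they were seen. The genes and lists were chosen with earlier results of these data known. Groups follow the description field of the labels.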

Additional observations from a re-analysis of the deposited data

How the results depend on the processing

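The count of called genes of the set stayed at 0 in each direction under pseudocounts of 0.1 and 5, no filter, a mean of 5 FPKM or more, libraries scaled to equal medians, a trended prior in limma, the replicate block, leaving out rows with a listed 0 (added after seeing the data), and without WT A, WT B or KO B. Leaving out 1 library at a time gave 0 to 16 of the set called higher and 0 to 2 lower, the highest counts without KO A. Over all rows it gave 1 to 2269 higher and 3 to 2036 lower. With a pseudocount of 0.1 and with no filter 1 and 0 rows were higher, and without rows listed at 0 there were 0 higher and 0 lower. The replication median ranged from -0.2449 (without KO B) to 0.08494 (without KO A), the mitotic median from -0.06255 to 0.4192, and the gap from 0.18 to 0.33; with a pseudocount of 5 the gap was 0.19. The gap was positive under every alternative run, all of them on these same libraries. The trended prior, the replicate block, the scaling of libraries and leaving out rows with a listed 0 could not change it from 0.2695.

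Named differences turned sign when 1 library was left out, with ranges of -0.42 to 0.13 for Mcm2, -0.25 to 0.34 for Mki67, -0.15 to 0.20 for Top2a, -0.05067 to 0.5861 for Aurkb, -0.0007416 to 0.9349 for Anln and -0.00958 to 0.4461 for Foxm1. The cause was not tested. The replicate letters share no stated animal, litter or day, and the A minus B differences of WT and knockout correlated at r = -0.01 across 12703 rows, which are not independent. With the letters as a replicate block 0 genes of the set were called. The medians stayed at -0.12 and 0.15, which such a block cannot change, since each letter holds a WT and a knockout library. Depth limits the genes near 1 FPKM most.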
